A study of Mus musculus with 6 samples.

Results

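Cyclin G and the genes of the p53 response were read in endothelial cells (VECs) sorted from the postnatal day 7.5 (P7.5) mouse retina. The group holds 10 genes, chosen by symbol: the cyclins G Ccng1 and Ccng2, p53 itself (Trp53) with its inhibitors Mdm2 and Mdm4, the apoptosis genes Aen and Bax, the sestrins Sesn1 and Sesn2, and Zmat3. They are 10 of the 55487 genes listed, and all 10 were among the 20459 genes that entered the fit, each of which had 10 reads or more in 3 libraries or more. The genes were chosen with the comparison of genotypes already known, and Ccng1 was picked by the study from these same libraries, so the differences between genotypes below are a description of the 10 genes and not a test of them. The paper also measured Ccng1 by quantitative PCR in endothelial cells enriched with CD31 beads, and reports it as significantly reduced in the mutants.

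RNA-seq was performed on VECs of 3 animals per genotype. The mutants (Bmal1;CKO) were Bmal1 FL/FL;tdTomato FL/+;Pdgf-icreER, and the controls were tdTomato FL/+;Pdgf-icreER with no floxed Bmal1 allele named. Both groups carried the Pdgf-icreER transgene and 1 floxed tdTomato reporter allele, and both were given tamoxifen between P0.5 and P2.5. Cre acts only in cells in which the Pdgf-icreER transgene is active, and VECs were collected as cells positive for both its GFP and tdTomato. Bmal1 (Arntl) is the transcription factor of the circadian clock that binds E-boxes together with CLOCK, and the comparison asks which genes of VECs differ once it is deleted.

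p53 is a transcription factor that is held low by the ubiquitin ligase MDM2 and its relative MDM4, and that accumulates when DNA is damaged or cells are stressed. It then switches on genes that stop the cell cycle, start apoptosis or lower growth signalling, and its own inhibitor Mdm2 is among them, which closes a feedback loop. Cyclin G1 is one of the classic p53 targets and recruits the phosphatase PP2A to MDM2, whereas its relative cyclin G2 is switched on by FOXO factors when growth signals are withdrawn and is linked to arrest of the cell cycle.

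Ccng1 lies on chr11:40748552-40755311 of GRCm38, on the minus strand, and shared no base with another gene of the table. The stretch just before its start is printed from RefSeq (GRCm38.p6), read 5′ to 3′ along the gene, since it holds a p53 half-site, the motif of 10 bases to which one pair of p53 subunits binds. Capitals mark the half-site, which begins 160 bases before the start of the gene given above and 185 bases before the RefSeq start at 40755286.
Ccng1, chr11:40755312-40755536, minus strand: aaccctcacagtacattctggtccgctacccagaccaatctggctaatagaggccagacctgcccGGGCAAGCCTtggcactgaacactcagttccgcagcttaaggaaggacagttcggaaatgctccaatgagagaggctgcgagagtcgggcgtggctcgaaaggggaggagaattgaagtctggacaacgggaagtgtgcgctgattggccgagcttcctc

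Ccng1 was lower in the Bmal1;CKO than in the control libraries. Its normalized counts, that is reads divided by the size factor of the library, were 4516, 3188 and 4203 in control libraries 1 to 3 and 1529, 1461 and 2022 in Bmal1;CKO libraries 4 to 6. All 3 Bmal1;CKO libraries lay below the lowest control library. The mean was 3969 ± 694 in the controls against 1671 ± 306 in the mutants (SD, n = 3 each), a ratio of 0.421. On the log2 scale the difference was -1.25 with a standard error of 0.28 in limma-trend, and it ran from -1.40 to -1.15 when each library was left out in turn. Ccng1 was the only 1 of the 10 genes whose groups did not overlap, where 11.2% of all genes tested did not overlap, 4.54% with Bmal1;CKO lower and 6.62% with it higher.

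Benjamini-Hochberg adjustment over all genes gave Ccng1 an adjusted p of 0.825 in limma-trend, with an unadjusted p of 0.00255. The same gene had an adjusted p of 0.0335 in DESeq2 without shrinkage and of 0.0478 with its prior on the fold changes, and the 10 alternatives ranged from 0.0335 to 1. In limma-trend 0 of 20459 genes passed an adjusted p of 0.05, a share of 0%, and 0 of the 10 genes did. At an unadjusted p under 0.05 there were 1007 genes, or 4.92%, and 1 of the 10, Ccng1, against 1.75% of all genes in the lower direction and 3.17% in the higher. DESeq2 without shrinkage called 67 genes, or 0.327%, of which the 25 lower ones make up 0.122%, and 35 genes, or 0.171%, with the prior, of which 20, or 0.0978%, were lower. Ccng1 was the only one of the 10 among them in both DESeq2 fits. In DESeq2 without shrinkage, run again with each library left out after the values were seen, the adjusted p of Ccng1 was 0.0207 to 0.0484 in 4 of the 6 fits, but 0.731 without Bmal1;CKO library 4 and 0.785 without Bmal1;CKO library 5.

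**Figure D1:**
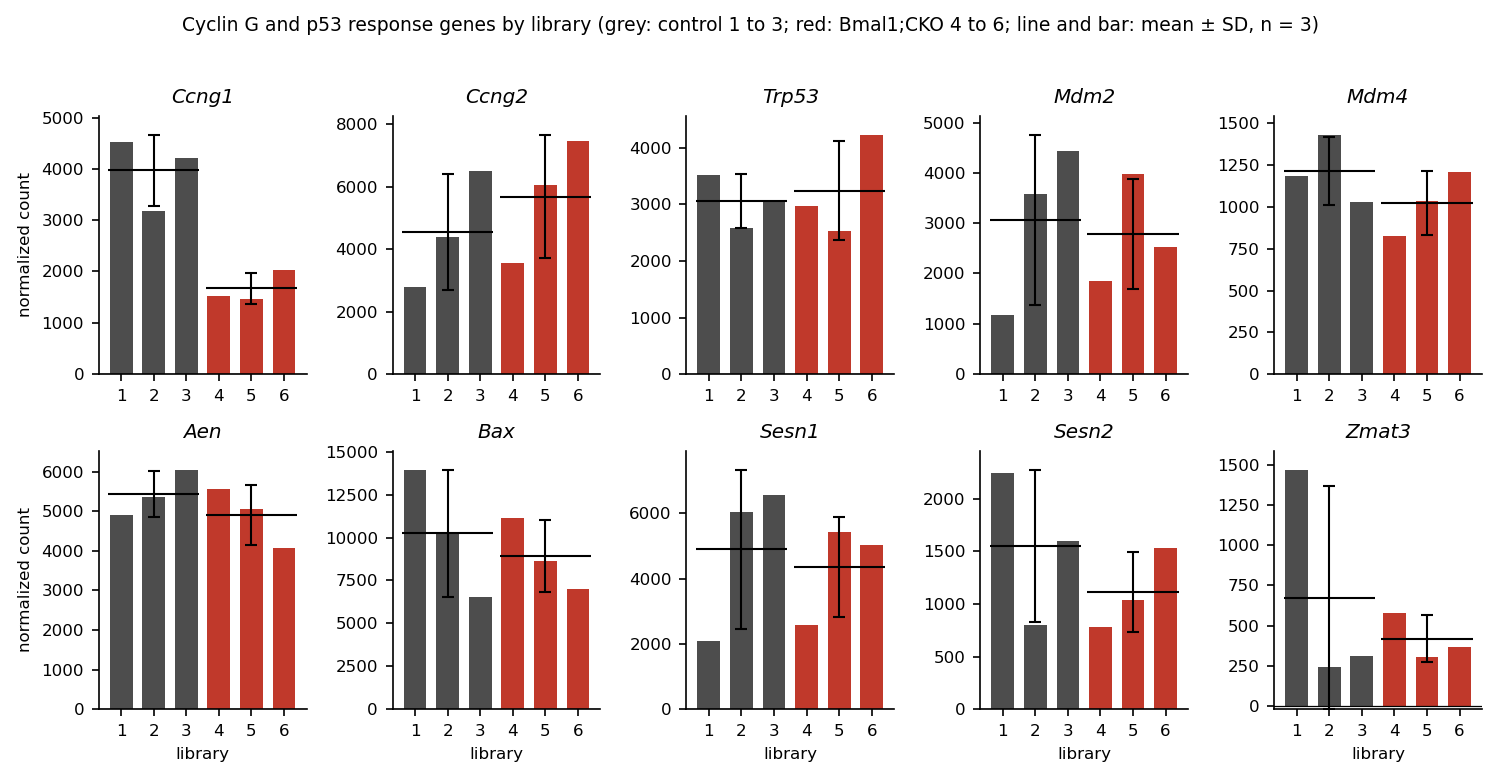
Normalized counts (y axes, linear) of the 10 genes in control libraries 1 to 3 (grey) and Bmal1;CKO libraries 4 to 6 (red), with the mean and SD of each group as lines and error bars. Ccng1 is at 3188 or above in the control libraries and at 2022 or below in the Bmal1;CKO libraries, while the groups overlap in the other 9 genes.

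Ccng2, on chr5:93267257-93276231, did not share the pattern of Ccng1. Its normalized counts were 2783, 4395 and 6493 in control and 3551, 6051 and 7454 in Bmal1;CKO, so that the groups overlapped over most of their range. The mean was 4557 ± 1860.1 in control and 5685 ± 1977 in Bmal1;CKO (SD, n = 3 each), and the log2 difference of 0.34 was smaller than its standard error of 0.41. It was 0.02 without control library 1 and 0.64 without Bmal1;CKO library 4. Within each library the ratio of Ccng1 to Ccng2 was 1.62, 0.725 and 0.647 in control and 0.43, 0.242 and 0.271 in Bmal1;CKO. The ratio was lower in all 3 Bmal1;CKO libraries than in any control library, as Ccng1 itself was. Since Ccng1 is part of the ratio, this adds no separate support.

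The RNA of these libraries was not that of VECs alone, and markers of other retinal cells were abundant. The median of 14 endothelial markers was 12022, 7458 and 8773 normalized counts in control and 7572, 4004 and 9473 in Bmal1;CKO, and the median of 10 microglia and macrophage markers was 125649, 55934 and 90436 against 138431, 115868 and 108299. Both medians overlapped between the groups. The microglial median lay above the endothelial one in each library, and so did the median of 10 rod markers. The median of 6 Muller glia markers did not overlap, at 3724, 5157 and 5533 in control and 8358, 7742 and 6533 in Bmal1;CKO. Taken singly, the 5 Muller glia markers tested all had overlapping groups. The medians of the rod, pericyte, astrocyte and erythroid markers overlapped. By the sign of the fitted difference all 14 endothelial markers lay below their control level (median -0.50 on the log2 scale), as did 9 of the 10 rod markers (median -0.33), while 9 of the 10 microglial markers lay above it (median 0.41). Summed, the endothelial markers ranged from 202216 to 424869.6 in control and from 123856 to 260963 in Bmal1;CKO. The microglial ones ranged from 1457307 to 4313189 and from 2111903 to 4207927. No endothelial, microglial or rod marker was at 0 in a library. In bulk RNA fewer cells of a type and less RNA per cell cannot be told apart.

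Set against the endothelial median of its own library, Ccng1 was at 37.6%, 42.7% and 47.9% in control and at 20.2%, 36.5% and 21.3% in Bmal1;CKO. The groups did not overlap on this scale either, although library 5, with the lowest endothelial median, came within about 1 percentage point of library 1. On the same scale 0.469% of all genes tested did not overlap with Bmal1;CKO lower and 9.7% with Bmal1;CKO higher. Bmal1;CKO libraries 4, 5 and 6 had endothelial medians of 7572, 4004 and 9473 beside Ccng1 counts of 1529, 1461 and 2022. The part of endothelial content in the lower Ccng1 count was not tested. Against the microglial median Ccng1 was at 3.59%, 5.7% and 4.65% in control and at 1.1%, 1.26% and 1.87% in Bmal1;CKO. Sesn2 did not overlap on this scale either, at 1.79%, 1.43% and 1.77% in control and 0.566%, 0.894% and 1.41% in Bmal1;CKO. The share of all genes without overlap was not computed for the microglial scale. Which of the cells present held the Ccng1 RNA was not tested.

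**Figure D2:**
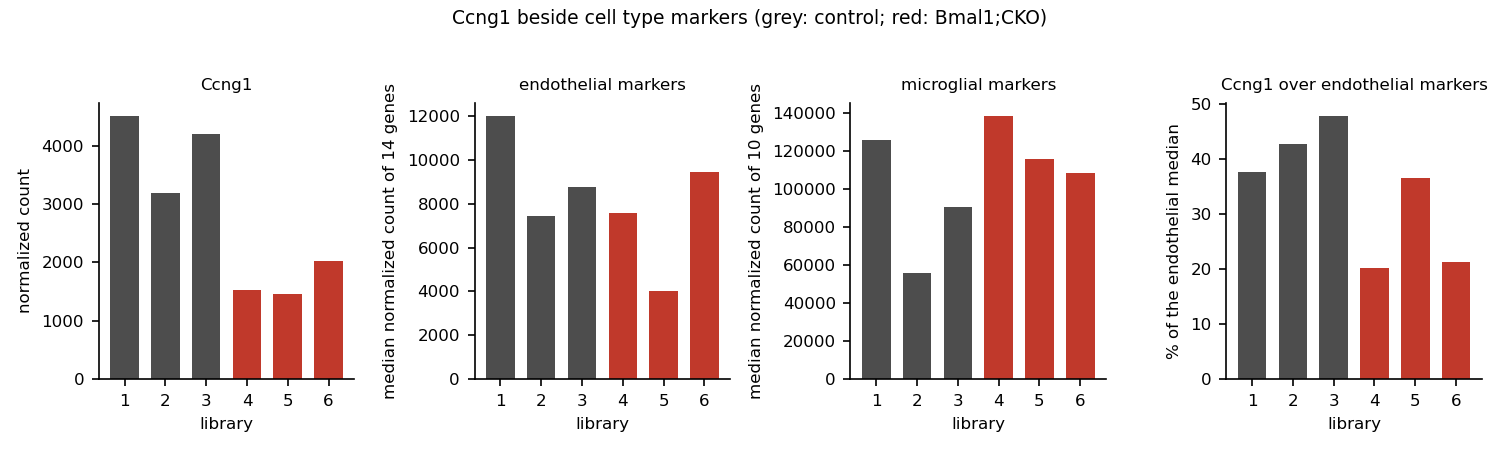
Ccng1 (normalized count), the medians of the endothelial and of the microglial markers (normalized count) and Ccng1 as a percentage of the endothelial median, in each library (control grey, Bmal1;CKO red, 1 bar per library). Ccng1 lies lower in libraries 4 to 6 both as a count and as a share of the endothelial median, where library 5 at 36.5% is close to library 1 at 37.6%.

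Trp53, on chr11:69580359-69591873, encodes p53, which is regulated mainly as a protein. Its normalized counts were 3525, 2587 and 3069 in control and 2972, 2536 and 4230.1 in Bmal1;CKO. The groups overlapped, and the log2 difference was 0.06 with a standard error of 0.29. Against the endothelial median of the same library Trp53 stood at 29.3%, 34.7% and 35% in control and at 39.2%, 63.3% and 44.7% in Bmal1;CKO, so that its groups did not overlap on that scale, as in 9.7% of all genes in this direction. Against the microglial median they overlapped, at 2.81%, 4.63% and 3.39% in control and 2.15%, 2.19% and 3.91% in Bmal1;CKO. The value of Trp53 is uncertain, since the processed pseudogene Trp53-ps on chromosome 17 matched it at 97.7% of 353 bases and was itself given 32309 reads over the 6 libraries against 20132 for Trp53. Trp53-ps held 4596, 4219 and 5079 normalized counts in control and 6360.0, 3745 and 6641 in Bmal1;CKO, more than Trp53 in each library, and its groups overlapped as well.

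Mdm2, on chr10:117688875-117710758, is both the main inhibitor of p53 and a p53 target. It held 1168, 3584 and 4433 normalized counts in control and 1841, 3979 and 2529 in Bmal1;CKO, and its log2 difference was -0.001 with a standard error of 0.55. Control library 1 alone moved this value to -0.59 when left out, and control library 3 moved it to 0.37. Mdm4, on chr1:132959484-133030561, blocks the activation domain of p53 and pairs with MDM2. Its counts of 1182, 1431 and 1028 in control and 826, 1033 and 1208 in Bmal1;CKO overlapped, with a log2 difference of -0.25 and a standard error of 0.34. Its pseudogene Mdm4-ps, alike at 94.1% of 4184 bases, held 1221 reads against 7191 for Mdm4. The ratio of Mdm2 to Trp53 was 0.331, 1.39 and 1.44 in control and 0.619, 1.57 and 0.598 in Bmal1;CKO and overlapped between the groups, as did that of Mdm2 to Mdm4.

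Bax, on chr7:45461697-45466898, encodes the protein that permeabilizes the outer membrane of mitochondria in apoptosis. Its normalized counts were 13927, 10277 and 6522 in control and 11122, 8618 and 6978 in Bmal1;CKO. The range of the Bmal1;CKO libraries lay inside that of the controls, and the log2 difference was -0.16 with a standard error of 0.34. An exon of the annotated gene Gm45808 shares 192 bases with Bax, and Gm45808 was given 0 reads. Aen, on chr7:78895854-78911209, is a nuclease induced by p53 that takes part in the breakdown of DNA in apoptosis. It was the steadiest of the 10 genes, with 4893, 5357 and 6046 normalized counts in control and 5569.6, 5057 and 4070.3 in Bmal1;CKO. Its highest control library exceeded the lowest by a factor of 1.24, and the log2 difference was -0.16 with a standard error of 0.24.

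The sestrins are stress proteins that restrain mTORC1 and limit oxidative damage. Sesn1, on chr10:41809935-41908424, held 2094, 6046 and 6554 normalized counts in control and 2594, 5418 and 5046 in Bmal1;CKO. The highest library exceeded the lowest 3.13 times in control and 2.09 times in Bmal1;CKO, and the log2 difference was -0.08 with a standard error of 0.51. Sesn2, on chr4:132492032-132510501, is also induced by other stresses than DNA damage. Its counts of 2249, 801 and 1603 in control and 783, 1036 and 1529 in Bmal1;CKO gave a log2 difference of -0.41 with a standard error of 0.48. The groups overlapped, and without control library 1 the difference was -0.08.

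Zmat3, on chr3:32334792-32366014, is an RNA-binding p53 target that acts on splicing and on the stability of mRNAs. It held 1469, 240.3 and 309 normalized counts in control and 581, 303 and 369.9 in Bmal1;CKO. Control library 1 stood 6.11 times above control library 2, the widest spread within a group of any of the 10 genes. The log2 difference was -0.25 with a standard error of 0.76, and it was 0.56 without control library 1.

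By the sign of the fitted difference 8 of the 10 genes lay below control in Bmal1;CKO and 2 above it, with a median of -0.16 on the log2 scale. Over all 20459 genes 8889 lay below and 11570 above, with a median of 0.11 that became -0.03 in edgeR's quasi-likelihood fit with TMM scaling. Apart from Ccng1, the differences of the 10 genes lay between -0.41 and 0.34, and each was smaller than its standard error. For Trp53, Mdm2, Bax, Sesn1 and Zmat3 the sign turned when some single library was left out.

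**Figure D3:**
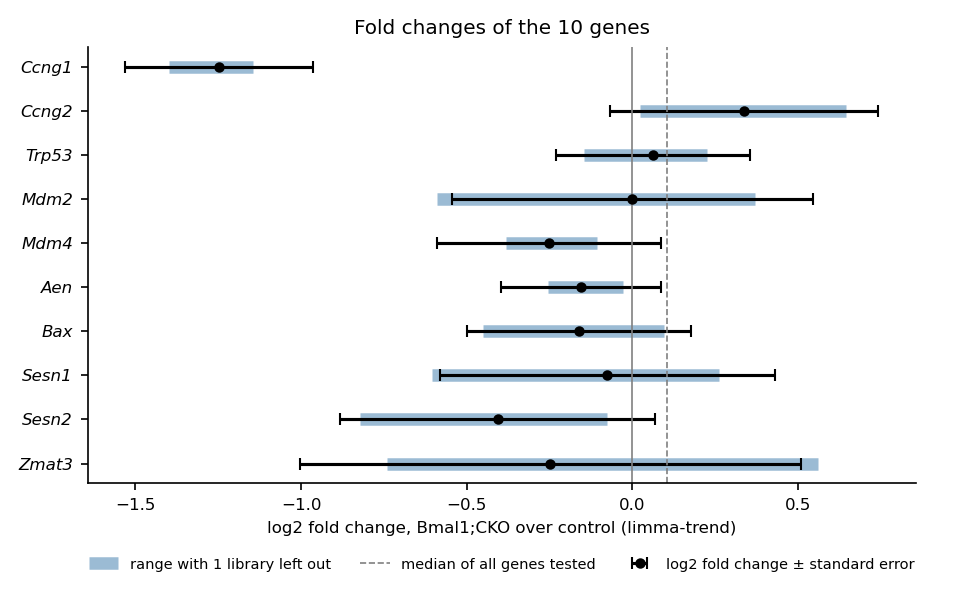
Log2 fold change of Bmal1;CKO over control for the 10 genes (points, with the standard error of limma-trend as black bars), the range with each library left out in turn (blue) and the median of all genes tested (dashed line, 0.11). The blue range of Ccng1, -1.40 to -1.15, is apart from those of the other 9 genes, of which 5 reach both sides of 0.

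Much of the variation of these genes ran across the libraries of both genotypes. Control library 1 and Bmal1;CKO library 4 were the 2 lowest of the 6 libraries for Ccng2, Mdm2 and Sesn1, and the 2 highest for Bax and Zmat3. That makes 3 of 10 genes lowest and 2 of 10 highest in this pair, beside 13.2% and 10.1% of all genes tested, a comparison made after the values were seen. These libraries had the smallest size factor of their group, 0.813 and 0.711, and reads on 21598 and 22142 genes, where the other 4 libraries had reads on 23889 to 27904. Control library 1 was not the shallowest control, with 87212411 reads on genes against 80277953 in control library 2. Bmal1;CKO library 4 had 71145068. The part of depth in this pattern was not tested. The closest of all pairs among the 10 genes was Mdm2 with Sesn1, whose log2 values, each centred on its own mean, differed by a root mean square of 0.198 over the 6 libraries.

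Per kilobase of exon, averaged over the 6 libraries, Bax had the highest level of the 10 genes at 6075 ± 1768 normalized counts per kilobase (SD, n = 6), and its lowest library lay above the highest of any other gene. Sesn1 followed with 1162 ± 464, Ccng2 with 938 ± 334, Aen with 890.5 ± 116, Ccng1 with 803 ± 384, Trp53 with 779.5 ± 158, Mdm2 with 575 ± 253 and Sesn2 with 384 ± 164 normalized counts per kilobase. Neighbours in this order from Sesn1 to Sesn2 had overlapping ranges and are not separated. Mdm4 at 75.5 ± 13.9 and Zmat3 at 47.7 ± 40.9 were the lowest, and every library of both lay below every library of Sesn2. For Ccng1 the level per kilobase was 1130.0 ± 198 in control and 476 ± 87.2 in Bmal1;CKO (SD, n = 3 each).

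Genes with nearly the pattern of Ccng1 over the 6 libraries were looked for among 12982 protein-coding genes with a mean of at least 100 normalized counts. The nearest was Sik1, a salt-inducible kinase of cAMP signalling, which differed from Ccng1 by a root mean square of 0.084 on the log2 scale, where Ccng1 itself varied around its mean by 0.659. Sik1 had 504 ± 71.7 normalized counts in control and 236 ± 53.3 in Bmal1;CKO (SD, n = 3 each). Hlcs, the ligase that attaches biotin, followed at 0.162, the membrane protease Adam10 at 0.173, Smim13 at 0.184 and Arhgap19 at 0.201. The nearest to Ccng2 were Ccdc137, Rbp3, the retinoid-binding protein that photoreceptors secrete, Bhlhe23, Samd10 and Itpk1, at 0.083 to 0.145. Both sets were chosen for their likeness, so their own differences between genotypes add no support.

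Bmal1 is a transcription factor, and the windows from 250 bases before to 50 bases after the start were searched on both strands for its E-box CACGTG, for the p53 half-site and for the FOXO site GTAAACA. RefSeq held such a window for 9 of the 10 genes, with 12 windows in all, and Zmat3 had none. The p53 half-site was in 6 of the 9 genes, Ccng1, Trp53, Mdm2, Aen, Bax and Sesn1, where it was in 8.36% of all 32851 windows and 9.55% of 27025 genes. The half-sites of the others that lay outside exons are printed with 25 bases on each side, in capitals as for Ccng1, so that they can be set beside it.
Trp53, chr11:69580259-69580318, plus strand: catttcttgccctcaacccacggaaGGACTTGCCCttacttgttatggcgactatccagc
Mdm2, chr10:117710910-117710969, minus strand: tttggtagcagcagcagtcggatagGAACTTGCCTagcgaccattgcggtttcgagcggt
Bax, chr7:45467065-45467124, minus strand: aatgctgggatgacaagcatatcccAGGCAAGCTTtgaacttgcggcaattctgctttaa
Sesn1, chr10:41887241-41887300, plus strand: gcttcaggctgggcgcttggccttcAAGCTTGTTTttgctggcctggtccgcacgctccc

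Counted from the RefSeq start of each window, these half-sites began 75 bases before it in Trp53, 186 in Mdm2, 201 in Bax and 173 in the second window of Sesn1. That second window belongs to a RefSeq start at 41887439, far inside Sesn1, whose first base is 41809935. The 2 windows of Aen held the same half-site, which lay in an exon of Aen. The E-box CACGTG was in 3 of the 9 genes, Bax, Aen and Trp53, where 7.15% of all windows and 8.09% of genes held it. In Bax it lay 9 bases before the start and again within the first exon. The letters CACGTG were not in the window of Ccng1. The FOXO site GTAAACA was in 2 of the 9 genes, Mdm2 and Sesn1, beside 3.65% of all windows, and was not in the window of Ccng2. In Sesn1 it lay in an exon of the gene. A match to these letters, or the lack of one, is a description of the sequence in these windows. It does not show whether a factor was bound.

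The wider pathway was read from 7 lists of genes by function, 70 genes in all, of which 65 were tested. By sign 42 of them were higher in Bmal1;CKO and 23 lower, with a median log2 difference of 0.23 beside 0.11 for all genes. The 9 genes with under 10 reads in a library were all on the higher side, and the other 56 split into 33 higher and 23 lower, with a median of 0.16. With an adjusted p under 0.05 in limma-trend there were 0, and at an unadjusted p under 0.05 there were 2, both higher, beside 4.92% of all genes. The groups did not overlap in 11, or 16.9%, of which 7 were higher and 4 lower, beside 11.2% of all genes.

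Beside the 10 genes the lists held 32 p53 targets, of which 30 were tested, 19 higher and 11 lower by sign, with a median of 0.27. The 7 of them with under 10 reads in a library all counted as higher, and the other 23 split into 12 higher and 11 lower, with a median of 0.02. Of the 13 targets in cell cycle arrest and repair 7 were higher and 6 lower, with a median of 0.13 that was -0.24 without control library 1. The lowest was Polk, a polymerase that copies across DNA lesions, with 1020.0, 579 and 419 normalized counts in control and 81.6, 327 and 381 in Bmal1;CKO. Its groups did not overlap, and its log2 difference of -1.53 (standard error 0.74) was -0.83 without library 4. Cdkn1a, which encodes p21, the CDK inhibitor through which p53 stops the cycle, held 24954, 8735 and 6575 normalized counts in control and 9973, 9591 and 8891 in Bmal1;CKO and was added here after its values were seen. Its groups overlapped, and its log2 difference of -0.25 (standard error 0.47) was 0.32 without control library 1.

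Among the 11 targets in apoptosis 10 were tested, of which 6 were higher and 4 lower, with a median of 0.32 that was -0.22 without control library 1. The lowest was Tnfrsf10b, the mouse receptor for the death ligand TRAIL, with 502, 308 and 171 normalized counts in control and 138, 59.6 and 95.6 in Bmal1;CKO. Those groups did not overlap, and the log2 difference was -1.68 (standard error 0.74, unadjusted p = 0.0528 and adjusted p = 0.883 in limma-trend). In metabolism and autophagy 7 of 8 targets were tested, 6 higher and 1 lower, with a median of 0.33. The lower one was Ddit4, an inhibitor of mTORC1, at 1944, 2273 and 2011 normalized counts in control and 1233, 1676 and 1685 in Bmal1;CKO, with groups that did not overlap and a log2 difference of -0.45 (standard error 0.29). In the opposite direction, and named after their values were seen, the groups did not overlap for Phlda3, an inhibitor of AKT, at 0.39 (standard error 0.26), nor for Prkab1, a subunit of the energy sensor AMPK, at 0.33 (standard error 0.23). Phlda3 held 2082 to 2904 normalized counts in control and 2950.0 to 3741 in Bmal1;CKO, and Prkab1 held 18542 to 24190.2 and 25188 to 27933.

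Several of these targets were nearly missing from single libraries. Ddb2, which recognizes DNA damaged by ultraviolet light, had 0 reads in control library 1, where 3 reads would be 3.69 normalized counts, and 1029 and 607 normalized counts in the other 2 controls and 453, 859 and 644 in Bmal1;CKO. Perp, a protein of desmosomes and p53 target, had 1 read in control library 1 and at least 132 in the others. Pidd1, which nucleates the complex that activates caspase-2, had 2 reads in control library 2 and at least 208 in the others. Gtse1, which takes p53 out of the nucleus in G2, had 7 reads in control library 1 and at least 432 in the others. Dram1, Gls2 and Sfn also had under 10 reads in at least 1 library, and Eda2r and Sco2 were not tested for low reads. The fitted fold changes of these genes depend on the pseudocount and are not quoted, but they enter the signs and medians above.

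The p53 family, the kinases that act on p53 and its other regulators counted 17 genes, of which 14 were tested, 9 higher and 5 lower, with a median of 0.27. Hipk2, a kinase that phosphorylates p53 and promotes apoptosis, held 1403, 1936 and 4138 normalized counts in control and 4509, 4522 and 5710.5 in Bmal1;CKO. The groups did not overlap, and the log2 difference was 1.12 (standard error 0.41, unadjusted p = 0.0271 and adjusted p = 0.883 in limma-trend), from 0.79 to 1.57 with a library left out. The acetyltransferase Kat5 and the ubiquitin ligase Herc2 were also higher without overlap and the checkpoint kinase Chek2 lower without overlap, with log2 differences of 0.49, 0.59 and -0.65, and are named after their values were seen. Usp7, the enzyme that removes ubiquitin from p53 and MDM2, had the lowest difference of the list at -0.67 (standard error 0.33), with 4071, 2837 and 2074 normalized counts in control and 1536, 1855 and 2097 in Bmal1;CKO. Its groups overlapped by library 6 alone, which lay above control library 3. Trp63, Trp73 and Cdkn2a were not tested for low reads, and Chek1 had 0 reads in control library 1 and at least 76 in the others.

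Among the lists as tested, the partners of the cyclins G had the narrowest range of differences. With only genes of at least 10 reads in every library, that of the FOXO factors was narrower, at 0.13 to 0.42. The 8 partners, PP2A subunits with Cdk5 and the cyclin G associated kinase Gak, were split into 4 higher and 4 lower. Their median of -0.02 was 0.26 without control library 3, and the groups overlapped in all 8. Their differences ran from -0.31 in Ppp2r5c, a B56 subunit of PP2A, to 0.53 in Ppp2r5b, with standard errors of 0.24 and 0.45. Ppp2r5c held 8171, 10326 and 11779 normalized counts in control and 8111, 7095 and 9024 in Bmal1;CKO, and Ppp2r5b held 1136, 2007 and 3895 against 3233, 2624 and 3169.9. The difference of Ppp2r5b was 0.99 without control library 3 and fell to about 0.1 without control library 1, and that of Ppp2r5c was -0.19 without control library 3.

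FOXO factors and their targets were read beside Ccng2. The fitted differences of all 4 FOXO genes were above 0, with a median of 0.34 that was 0.06 without control library 2 and 0.62 without control library 1, and the groups overlapped in each. Foxo4 had the lower mean in Bmal1;CKO, 81.1 ± 20.9 against 114 ± 141 normalized counts (SD, n = 3 each), and its difference of 0.27 was -0.48 in edgeR with TMM scaling. The differences of Foxo1 and Foxo3, 0.42 and 0.13, were -0.06 without control library 2 and -0.04 without control library 3. Foxo6 had 9 reads in control library 1 and at least 1105 in the others. Foxo1, the FOXO factor best known from vessels, had 6094, 1851 and 4162 normalized counts in control and 5921, 3700.2 and 5116 in Bmal1;CKO and was picked after its values were seen. Of 9 other FOXO targets 6 were higher and 3 lower, with a median of 0.51. Irs2, an adaptor of the insulin receptor, held 4533, 3475 and 3868 normalized counts in control and 11191, 11851 and 6242 in Bmal1;CKO. All 3 Bmal1;CKO libraries were above the controls, with a log2 difference of 1.25 (standard error 0.31, unadjusted p = 0.00406 and adjusted p = 0.857 in limma-trend), from 1.09 to 1.55 with a library left out. The apoptosis gene Bcl2l11, named after its values were seen, was also higher without overlap, at 0.63, while the thioredoxin inhibitor Txnip was the lowest of the list at -0.30 with a standard error of 0.30.

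**Figure D4:**
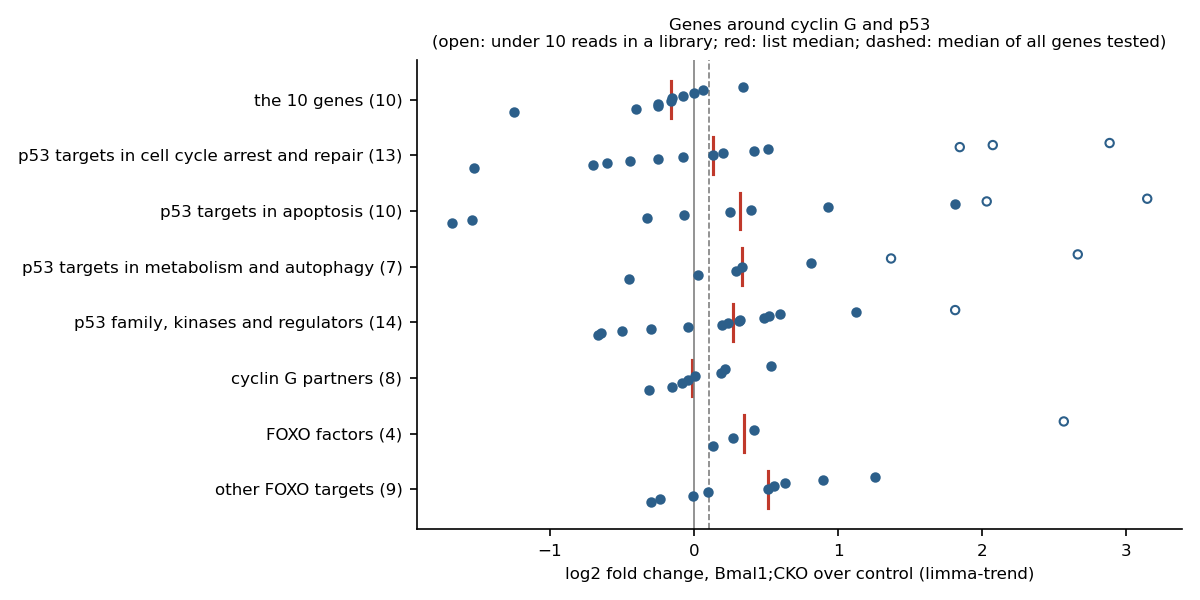
Log2 fold change of Bmal1;CKO over control (x axis) for the 10 genes and the tested genes of the 7 lists (1 row each, number tested in parentheses), with list medians in red, the median of all genes tested as a dashed line and genes with under 10 reads in a library as open circles. Most lists spread to both sides of 0, the cyclin G partners lie between -0.31 and 0.53, and the open circles are all to the right.

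Bmal1 itself, listed as Arntl, was read to check the labels. It held 1700.4, 3489 and 2928 normalized counts in control and 1779, 2747 and 2415 in Bmal1;CKO, and the groups overlapped, with a log2 difference of -0.19 (standard error 0.36). A count of the whole gene includes exons that Cre leaves in place and RNA of cells other than VECs, so it cannot check the deletion in VECs. The libraries labelled Bmal1;CKO are therefore taken as labelled. By droplet digital PCR of sorted endothelial cells, the paper reports significantly less Bmal1 transcript in the mutants. The libraries held 71145068 to 104017800 reads on genes, and the 10 genes had 259 to 11319 reads per library, at least 10 in every library for all 10.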

How the data were processed

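RNA was measured in sorted VECs of 3 control and 3 Bmal1;CKO animals, with 1 library each. The authors used FastQC and Trimmomatic to check and trim the reads, Bowtie to align them to GRCm38 (mm10), featureCounts to count them per gene and DESeq2 to compare the groups. The use of strand in the counting is not given in the sources used here. The deposited signal is the count of a gene divided by the size factor of its library. Other columns of the authors hold their own fold changes and p-values and were not used. The columns name the genotype but carry no number that ties them to a single animal of the labels, so each is a replicate of its genotype.

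Division of each column by its smallest step gave whole reads for 100% of values, within 0.05 of a read, and size factors of 0.711 to 1.40. Genes with 10 reads or more in 3 libraries or more were fitted with limma-trend (limma 3.58.1, R 4.3.3) on log2(normalized count + 1). The model held no term but genotype, and Benjamini-Hochberg adjustment ran over all 20459 genes. The added 1 narrows the change of low genes, but a single library near 0 can enlarge the fitted difference or turn its sign. Chek1, with 0 reads in control library 1, was fitted as higher in Bmal1;CKO. Its mean was lower there, at 169 against 223 normalized counts in control. With 3 libraries against 3 an exact permutation test of 1 gene cannot go below p = 0.1, so none was run. The fits were tested on simulated counts with the same dispersion for all genes and with larger changes than those of the 10 genes. That test does not show how well changes of the size seen here are found. Alternatives were edgeR 4.0.16 on recovered reads with TMM scaling and with the DESeq2 size factors, limma-voom, DESeq2 1.42.0 with and without its prior (betaPrior), pseudocounts of 0.5 and 10, log2 CPM with a prior count of 2, 2 other filters and each library left out in turn. edgeR with TMM scaling and with the size factors called 0 genes at an adjusted p under 0.05. Intervals of counting were not used, since amplified reads are not independent molecules.

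Gene positions, exon lengths and overlaps came from GENCODE M21 (GRCm38), in which 55227 of 55487 genes had a length. Promoters came from RefSeq (GRCm38.p6). Transcripts of other genes alike at 90% or more of at least 300 bases were counted as copies. Genes of the lists were named for an unadjusted p under 0.05, groups that do not overlap with a log2 difference over 1, under 10 reads in a library, or an extreme difference of their list. Genes named otherwise are marked in the text. The 10 genes, the lists and the tests were chosen with earlier results of these data known. The comparison of libraries 1 and 4 and DESeq2 with each library left out were added after seeing the data. Python 3.11.15 with pandas 2.3.3, numpy 2.4.6 and matplotlib 3.10.9 was used for tables and plots.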

Additional observations from a re-analysis of the deposited data

How the results depend on the processing

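No paired analysis was possible because the columns carry no replicate number that the labels share between the groups. The number of genes with an adjusted p under 0.05, 0 in limma-trend, was 67 in DESeq2 without shrinkage, 35 with betaPrior, 1 with a filter of at least 1 read in total and 1 with at least 10 reads in every library, and 0 to 6 with a library left out (6 without control library 1). Ccng1 was the 1 gene of the 10 called in both DESeq2 fits, with 0 called in limma-trend when a library was left out. In DESeq2 without shrinkage, in an alternative chosen after seeing the data, its difference ran from -1.408 to -1.145 with a library left out, and the call was lost without Bmal1;CKO library 4 or 5, so that 0 to 1 of the 10 genes were called. Genes with an unadjusted p under 0.05 ran from 729 to 1400 under the alternatives and from 318 without Bmal1;CKO library 5 to 2332 without control library 3. The median of the 10 genes stayed between -0.19 and -0.15, and between -0.23 and -0.13 with a library left out.

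The median of targets in arrest and repair was -0.165 with at least 10 reads in every library and -0.235 to 0.238 with a library left out. That of targets in apoptosis was 0.178 and 0.180 in the edgeR fits, 0.180 in DESeq2 without shrinkage, 0.106 with betaPrior, 0.090 with at least 10 reads in every library and -0.216 to 0.448 with a library left out. That of the regulators of p53 was 0.119 with betaPrior and 0.076 to 0.361 with a library left out, that of the other FOXO targets 0.219 to 0.596, that of the FOXO factors 0.058 to 0.619 and that of the cyclin G partners -0.102 to 0.264. The cause of these shifts was not tested.

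With a library left out the difference ran from -0.145 to 0.224 in Trp53, -0.591 to 0.371 in Mdm2, -0.452 to 0.095 in Bax, -0.605 to 0.261 in Sesn1, -0.742 to 0.561 in Zmat3, -0.640 to 0.322 in Cdkn1a, -0.489 to 0.029 in Arntl, -0.063 to 0.796 in Foxo1, -0.035 to 0.244 in Foxo3 and -0.429 to 1.299 in Foxo4. Of the genes named with a log2 difference, signs turned in these and under no other setting but 4 for Foxo4, which was -0.480 and -0.490 in the edgeR fits, -0.490 in DESeq2 without shrinkage and -0.160 with betaPrior: Trp53 at -0.053 without control library 2 and -0.145 without Bmal1;CKO library 6, Mdm2 at 0.218 and 0.371 without control libraries 2 and 3 and at 0.261 and 0.032 without Bmal1;CKO libraries 4 and 6, Bax at 0.095 without control library 1 and 0.003 without Bmal1;CKO library 6, Sesn1 at 0.160 and 0.218 without control libraries 2 and 3 and 0.261 without Bmal1;CKO library 4, Zmat3 at 0.561 and Cdkn1a at 0.322 without control library 1, Arntl at 0.029, Foxo1 at -0.063 and Foxo4 at -0.066 without control library 2, and Foxo3 at -0.035 and Foxo4 at -0.429 without control library 3.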
